A study of Mus musculus with 6 samples.

Results

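Among the stretches of mouse liver chromatin that were open in every library of this series, 1035 were at least halved in accessibility after a fast, and they were chosen by their maximum tag density. They are 2.87% of the 36095 regions on chromosomes 1 to 19 that carried a hotspot in all 6 libraries, and cover 1.26 of 44.9 Mb. The mice were C57BL/6, a common inbred strain, and whole livers were used. In the fed group (n = 3) mice ate ad libitum, and in the fasted group (n = 3) food had been withheld for 24 h. All livers were taken at the same clock time, when the lights came on. Neither age nor sex is given in the sources used here, and the labels do not say that each replicate was a separate animal, so the spread between libraries may be partly technical.

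DNase I cuts DNA that is not shielded by nucleosomes, so a local excess of sequenced ends, called a hotspot, marks promoters, enhancers and other elements held open by bound transcription factors. In the fed liver, insulin and dietary sugar act through factors such as SREBP-1c and ChREBP to drive glycolysis and fat synthesis. During a fast, glucagon and glucocorticoids act through CREB and the glucocorticoid receptor, and fatty acids through PPARα, and the liver turns to gluconeogenesis and ketogenesis. No gene is named for any region here, because the annotation at hand belongs to another genome build than the coordinates (mm9) and positions were not converted. For the same reason no sequence is shown, and the labelled tissue was not checked against marker genes. Whole liver holds several cell types, so fewer cells with an open site and a weaker opening per cell cannot be told apart.

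Where a library had several hotspots in a region, the highest of their maximum tag densities was taken as its density. On the scale log2(density + 1), each library was centred on its own median over the shared regions. A region was selected on these values when the fasted mean lay at least 1 below the fed mean and the highest fasted library lay below the lowest fed one. The difference and the order of the libraries are therefore fixed by the choice, and their values are given as a description. For comparison, 724 shared regions (2.01%) met the mirror rule, and are called doubled below.

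**Figure D1:**
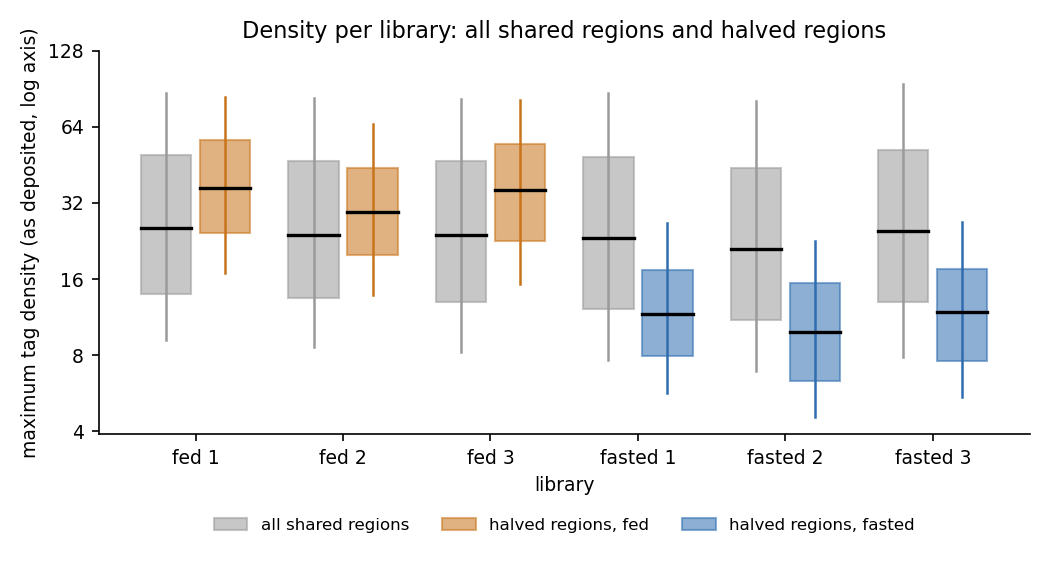
Maximum tag density in each of the 6 libraries (log axis) for all 36095 shared regions in grey and for the 1035 halved regions in colour; boxes span the quartiles, black lines are medians and thin lines run from the 10th to the 90th percentile. The medians of the halved regions were 29.6 to 36.8 in fed and 9.87 to 11.8 in fasted libraries, while the grey medians lay between 21.1 and 25.4.

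At the halved regions the library medians lay above those of all shared regions in fed liver and below them in fasted liver, as a choice on the difference favours. Fed replicates 1 to 3 had a median density of 36.8, 29.6 and 35.9 at these regions, whereas fasted replicates 1 to 3 had 11.6, 9.87 and 11.8. Over all shared regions the fed medians were 25.4, 24.0 and 23.8 and the fasted medians 23.3, 21.1 and 24.8. The doubled regions were the mirror image: the median of their group means was 15.9 in fed and 39.2 in fasted liver, against 34.4 and 11.3 at the halved regions. Fed replicate 2 held the lowest fed value in 609 of the 1035 regions (58.8%), against 30.3% of all shared regions.

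Most halved regions were of middling to high strength in fed liver, and few were among the very strongest. Fed density itself entered the choice, which favours high values of it. Divided by mean fed density into 4 groups of equal number, the shared regions held 54, 242, 437 and 302 halved ones from the weakest group to the strongest (3.35% of the strongest group). By the mean level over all 6 libraries, which the loss itself lowers, the same division gave 251, 398, 314 and 72 (0.80% of the strongest group). Only 38 regions had a mean fed density of 100 or more, which is 3.67% of the halved regions against 6.75% of all shared ones. A region had to keep a hotspot in every fasted library to be counted, which bounds the loss that a weak region can show.

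**Figure D2:**
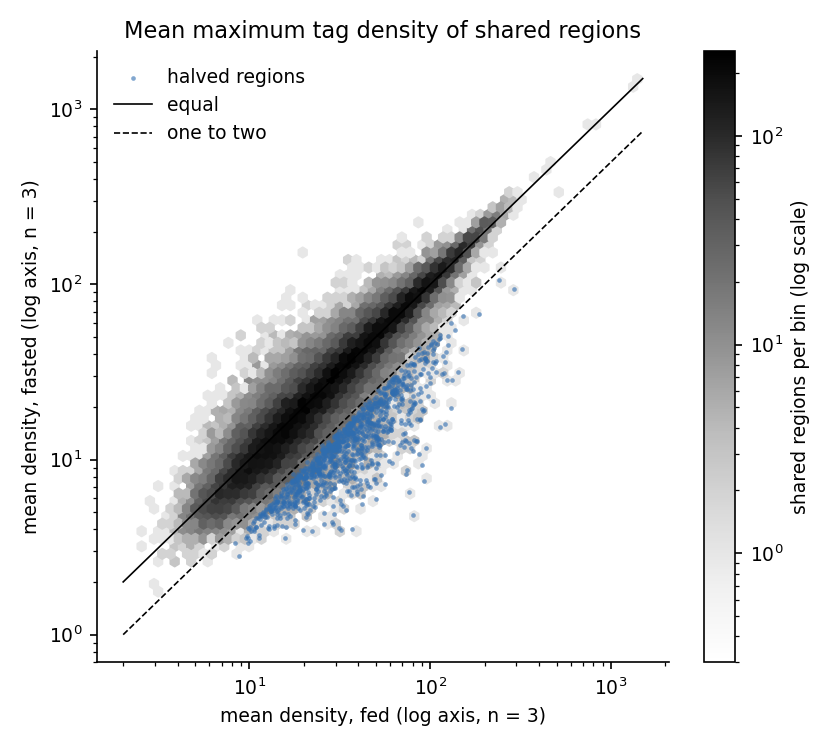
Mean density of each shared region in fed (horizontal) and fasted (vertical) libraries, both on log axes (n = 3 each); grey bins count the 36095 shared regions and blue points are the 1035 halved regions. The solid line marks equal values and the dashed line a ratio of 1 to 2; the halved regions lie below the dashed line, mostly at fed means between 16.4 and 76.6, their 10th and 90th percentiles.

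The site with the highest fed density of all halved regions stood apart in its shape. It lies at chr1:24619396-24620156 (mm9). It reached 340.2, 289 and 245 in fed and 90.5, 116 and 75.7 in fasted replicates 1 to 3. Its hotspot was 760 bp long in 5 libraries and 759 bp in the other. It was the 1 region of all 36095 shared ones with a single hotspot per library whose called length differed by at most 1 bp over the 6 libraries. That stretch of chromosome 1 is known to hold a nuclear copy of mitochondrial DNA, from which tags are hard to tell apart, so its values are uncertain. No annotation was used here to check the overlap, and its part in the difference was not tested.

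Other sites with a high fed density had more usual shapes. The second highest was chr5:125945474-125948272, where densities were 276, 235 and 207 in fed and 102, 98.5 and 118 in fasted livers, and the length called per library went from 2563, 2663 and 2798 bp to 1754, 1746 and 1628 bp. At chr16:43297634-43299141, the fifth highest, the fed libraries read 157, 138 and 152 and the fasted ones 48.2, 39.7 and 39.7. Of the mean fed density, 44.4% was left at the first and 28.5% at the second, against a median of 36.3% over all halved regions.

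Another pair of sites combined a high fed density with a deep loss. At chr4:108989364-108990720 the fed libraries read 130.2, 125 and 141 and the fasted ones 22.7, 36.7 and 26.0, which left 21.6%. At chr3:18154017-18155064 densities of 156, 119.9 and 116 stood against 21.3, 20.1 and 17.9, which left 15.1%, the smallest share among the 10 sites with the highest fed density. The remaining sites of those 10 lie on chromosomes 4, 9, 10, 14 and 15, with 22.3% to 46.4% left.

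Some residual density at the halved regions was fixed by the choice, which required a hotspot in every fasted library. The limit of -1 on the log2 difference in turn capped the share left. The mean fasted density was a median of 36.3% of the fed one (quartiles 28.8% and 41.2%). It was under 25% at 154 regions and under 12.5% at 11. By the log2 difference, 703 regions (67.9%) lay between -1 and -1.5, 234 (22.6%) between -1.5 and -2, 94 (9.08%) between -2 and -3, and 4 at -3 or lower. Read in each fasted library by itself, the median share left was 36.3%, 30.6% and 36.8% in replicates 1 to 3, on densities that were not centred. Fasted replicate 2, with the lowest share, also had the lowest median over all shared regions (21.1). On the centred scale the median levels at the halved regions were -0.94, -1.03 and -1.01 in fasted replicates 1 to 3.

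**Figure D3:**
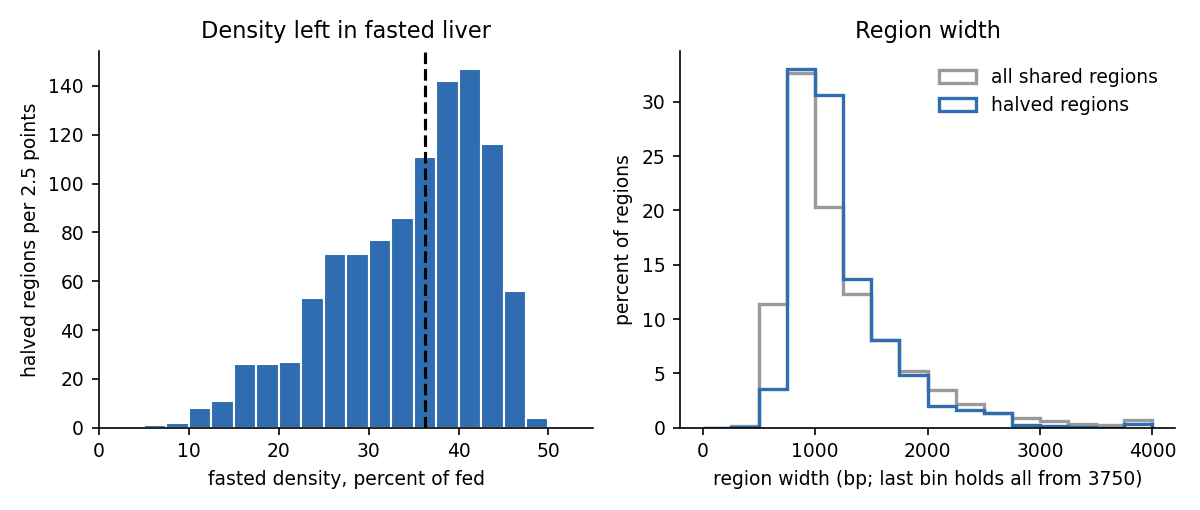
Left, the mean fasted density of each halved region as a percentage of its mean fed density, in bins of 2.5 points, with the median of 36.3% as a dashed line. Right, the width of halved and of all shared regions in bins of 250 bp, as a percentage of each set; the medians are 1078 and 1053 bp, and the halved set has fewer members in the narrowest and widest bins.

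The residual signal mostly lay above that of the weakest hotspots called, which the choice favours by requiring a hotspot in every fasted library. Within a library all densities were whole multiples of 1 step, to within 0.05 of a step. If 1 step is 1 tag, the median halved region was 41, 50 and 39 tags high in fasted replicates 1 to 3. In the fed ones it was 100, 79 and 157 tags high. Tags are not scaled for depth, which ran from 1.00 in fed replicate 2 to 1.90 in fasted replicate 2, relative to the shallowest library. The 5th percentile of all hotspots was 13 to 16 tags. Below that percentile of their own library lay 33, 14 and 41 halved regions in the fasted libraries and none in the fed ones. The choice favours high values in the fed libraries.

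The 4 deepest losses ended at 15 to 40 tags, again not scaled for depth. At chr14:11582371-11584068 heights of 259, 128 and 426 tags in fed livers stood against 17, 24 and 16 tags in fasted ones, with 5.98% of the density left. At chr13:46248402-46249373 they were 298, 180 and 445 against 32, 36 and 21 tags. At chr11:16488684-16490069 and chr4:130272089-130273206 the fasted heights were 34, 27 and 15 and 37, 40 and 31 tags. The groups were separated by 2.55 or more on the log2 scale at each of the 4, between the highest fasted and the lowest fed library. Among all halved regions that gap had a median of 0.83 and ranged from 0.007 to 2.92.

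At the other end were sites close to the limit. The most was left at chr2:134369707-134371673 (49.7%), with fed densities of 92.3, 78.3 and 91.1 and fasted ones of 64.4, 24.3 and 41.5. At chr9:65469190-65470208 (49.1% left) the fasted libraries read 32.9, 13.0 and 29.4. At chr13:64191177-64191907 (48.0% left) they read 11.3, 6.51 and 18.5 against 31.3, 25.5 and 18.996 in fed livers. Fasted replicate 2 was the lowest library at all 3, and in the last the groups were only 0.10 apart on the centred scale.

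The threshold cuts through a continuous range. Just inside it were chr3:24916446-24917170, with fed densities of 16.5, 12.4 and 12.4 and fasted ones of 5.67, 7.50 and 4.84, and chr9:110264526-110265399, with 26.5, 18.4 and 13.0 against 7.66, 7.30 and 9.99. Just outside was chr5:151576561-151577603, with 11.4, 14.2 and 8.70 against 4.54, 5.33 and 4.54. A further 15 regions had a mean difference of -1 or lower but overlapping groups. The largest of these, at chr1:129795321-129796816, read 63.6, 25.5 and 57.2 in fed livers and 6.81, 34.1 and 4.84 in fasted ones, with fasted replicate 2 above fed replicate 2.

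The rule could not reach sites that left the hotspot lists altogether. All 3 fed libraries called 1153 regions that no fasted library called, 1390 that 1 fasted library called and 2125 that 2 called. Most were weak, with median fed densities of 11.1, 8.997 and 8.55. Yet 40, 34 and 24 of them had a mean fed density above 34.4, the median of the halved regions. The lists give no density where nothing was called, so how much those sites lost is unknown.

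A lower density was also read in libraries whose values were left out of the choice. All candidates were regions called in all 6 libraries, so the held-out libraries had still helped to set which regions could be chosen. The rule was applied to 2 fed and 2 fasted libraries, and the difference was then read between the fed and the fasted library held out, for each of the 9 choices. Between 1027 and 1334 regions were chosen, and their median held-out difference was -1.32 to -0.96 on the log2 scale, against 0.01 to 0.06 over all shared regions. It was below 0 at 92.6% to 98.9% of the chosen regions, against 44.7% to 48.9% of all. A difference of -1 or lower was reached by 46.5% to 70.2%, against 3.11% to 5.04% of all. The 3 smallest medians (-0.96, -1.003 and -1.06) came from holding out fed replicate 2. At the halved regions, which were chosen with all 6 libraries, its median centred level was 0.29, against 0.52 and 0.57 in fed replicates 1 and 3. The 9 choices share libraries and are not independent of each other. Replicates may not be separate animals, so a held-out library may come from the same liver as one used in the choice.

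In width the halved regions were ordinary, with few at either extreme. Their median width was 1078 bp (quartiles 928 and 1364), against 1053 bp (851 and 1452) for all shared regions. Of regions 1000 to 1500 bp wide 3.89% were halved, against 2.38% of those 500 to 1000 bp wide, 1.93% of those 2000 to 3000 bp wide and 0.98% (7 of 713) of the wider ones. A single hotspot in each library made up 913 of the 1035 (88.2%), close to the 87.1% of all shared regions.

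The stretch of DNA called open was shorter as well as lower. The mean length called per library had a median of 960 bp in fed and 727 bp in fasted livers at the halved regions, and of 878 and 897 bp over all shared regions. It was shorter in fasted livers at 1013 of the 1035 halved regions (97.9%), against 43.0% of all shared regions. At 657 (63.5%, against 6.46%) every fasted library called less than every fed one. Length and height come from the same tags, so this is not a separate line of evidence. How the caller set the length is not stated, and how far length follows height was not tested.

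The widest halved region, chr12:105580037-105587555, spans 7518 bp. Its maximum density was 79.4, 68.6 and 81.0 in fed and 14.5, 24.7 and 9.69 in fasted livers, and the length called was 6032, 5743 and 7518 bp against 2045, 4511 and 1255 bp. The next widest, at chr8:121967602-121971921 (4319 bp), read 50.8, 94.4 and 43.7 against 16.7, 27.0 and 17.3. At chr16:18405415-18409463 (4048 bp) the fed values of 94.9, 74.9 and 72.1 stood against 21.3, 18.4 and 21.8. The narrowest, chr17:31289221-31289612 (391 bp), read 12.1, 10.1 and 12.8 in fed and 4.54, 5.13 and 4.54 in fasted livers. Its height was 15 to 26 tags in the fasted libraries, close to the weakest hotspots that were called.

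Open sites were about as dense around halved regions as around other regions. The nearest shared region of any kind was a median of 6.09 kb away, edge to edge, against 6.08 kb for all shared regions. Another shared region lay within 20 kb of 768 of the 1035 (74.2%), against 75.7%. The most isolated one, at chr2:41894358-41895532, had no shared region within 1182 kb. It read 34.6, 19.5 and 31.6 in fed and 5.96, 11.1 and 3.33 in fasted livers.

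Halved regions had another halved region nearby more often, and a doubled one less often, than open sites at large, and doubled regions showed the mirror image. Within 20 kb of 172 halved regions (16.6%) lay another halved region, while 5.01% of all shared regions had a halved neighbour at that distance. A doubled region lay that close to 10 of the 1035 (0.97%), against 3.85% of all shared regions. Of the 724 doubled regions, 160 (22.1%) had another doubled one within 20 kb and 13 (1.796%) a halved one. From a halved region the median distance to the nearest other halved one was 408 kb, against 673 kb from the other shared regions. To the nearest doubled region it was 1229 kb, but doubled regions are fewer and this distance has no background here. These are counts along the genome without a test.

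Neighbouring halved regions with gaps of at most 20 kb made 77 runs, of which 61 held 2 regions, 14 held 3 and 2 held 4. The other 863 regions stood alone. Allowing gaps of up to 100 kb gave 130 runs with 302 regions and a largest run of 6.

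Of the 2 runs of 4, one lies on chromosome 4, where all 4 shared regions between 117655188 and 117670797 were halved. Their fed means summed to 158 and their fasted means to 58.2. The strongest of them, chr4:117665186-117667093, read 72.5, 57.7 and 61.6 in fed and 27.5, 15.8 and 23.6 in fasted livers. On chromosome 8 the other spans 32.3 kb (120169215 to 120201523), and its regions kept nearly equal shares of their fed density: 39.9%, 39.5%, 40.8% and 39.5%. Inside it 2 other shared regions were not halved, of which 1 had a difference above 0 and the other did not.

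Runs of 3 with deeper losses lie on chromosomes 3 and 10. At chr10:94604684-94616021 all 3 shared regions were halved, with log2 differences of -2.36, -2.07 and -2.20. The middle one read 98.9, 65.2 and 106 in fed and 23.5, 17.2 and 17.3 in fasted livers. At chr3:18145021-18155064 the 3 regions left 20.6%, 39.0% and 15.1% of their fed density, so the middle one lost least. At chr10:106761761-106791670 the shares left were 44.6%, 19.5% and 18.98%, and the first region, which lost least, lies 19.1 kb from the others.

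**Figure D4:**
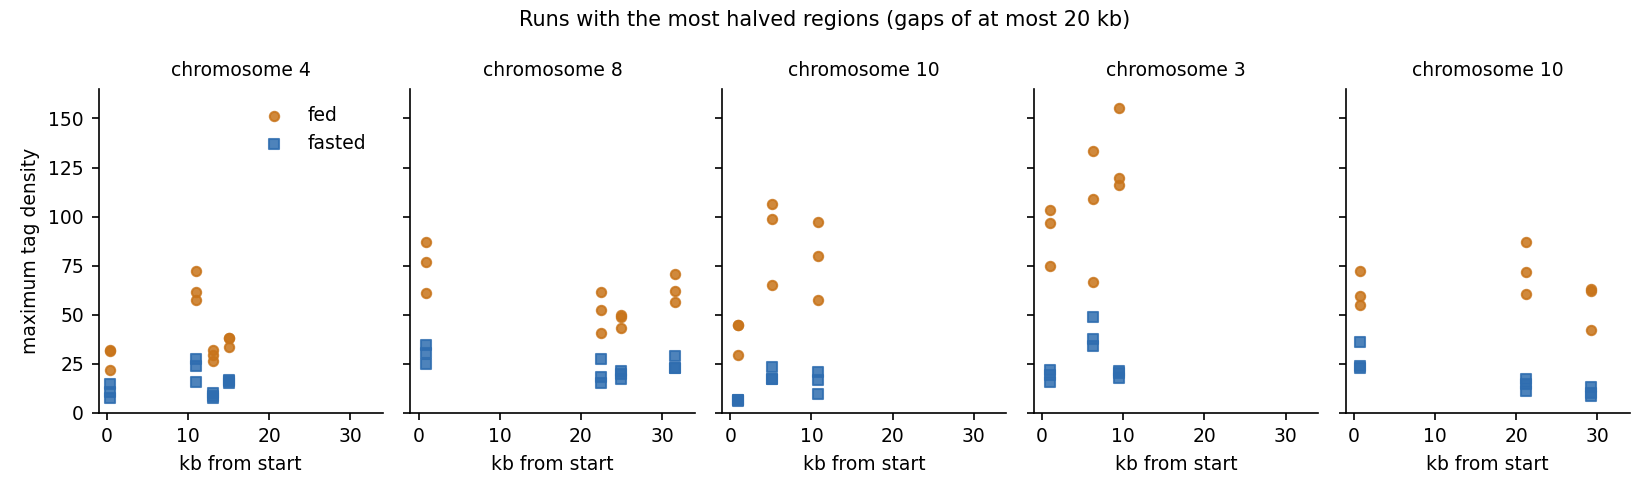
Maximum tag density in each library (fed circles, fasted squares) of the halved regions in the 5 runs with the most regions, ordered by number and then by mean loss, against the distance of each region's middle from the start of the run. Within each region the 3 fasted libraries lie below the 3 fed ones, as the rule required, and the gap differs between regions of the same run.

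Other shared regions close to a halved one were also called lower in fasted liver more often than open sites elsewhere. Each shared region was tested with limma, a linear model with moderated variances fitted across all 36095 regions, at a Benjamini-Hochberg adjusted p under 0.05. It called 2791 regions lower (7.73%) and 2978 higher (8.25%). Without centring the libraries the counts were 3134 lower and 1930 higher, and without fasted replicate 1 they were 2152 and 1950. All 1035 halved regions were among the lower ones and made up 37.1% of them, which follows from their choice. Of the 35060 regions that were not halved, 5.01% were called lower and 8.49% higher.

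Within 20 kb of a halved region lay 1635 shared regions that were not themselves halved. Of these 251 (15.4%) were called lower and 71 (4.34%) higher, and their median log2 difference was -0.13, against 0.05 over all regions that were not halved. Near doubled regions the calls went the other way: of 1231 other shared regions within 20 kb, 319 (25.9%) were called higher and 28 (2.27%) lower. The share called lower was 24.9% under 1 kb. Between 1 and 5 kb it was 18.01%, and between 5 and 20 kb 12.6%. Farther out it came to 6.92% up to 100 kb, then 4.63% up to 500 kb and 4.05% beyond. The share called higher was 3.70% to 4.62% within 20 kb and 7.59% to 8.83% farther away. The number called lower within 20 kb was 135 (8.26%, against 5.43% of all shared regions) without fed replicate 1 and 158 (9.66%, against 5.53%) without fed replicate 3. With every library kept, the same comparison was 15.4% against 7.73% of all shared regions, halved ones included. At short range a single broad site can be divided into several regions, and the part of this in the shares was not tested.

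**Figure D5:**
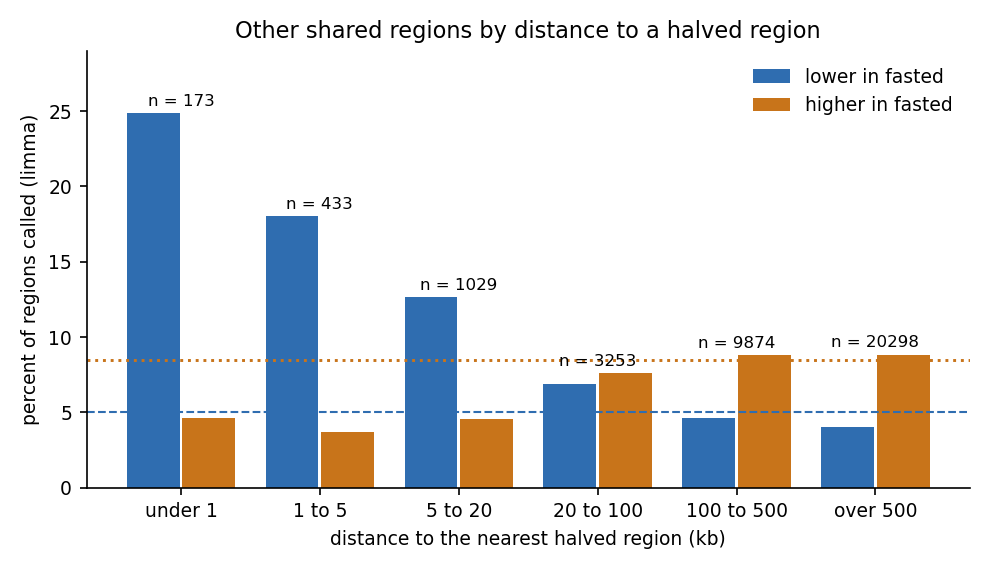
Percentage of shared regions, other than the halved ones, called lower (blue) or higher (orange) in fasted liver by limma, by distance to the nearest halved region, with the number of regions above each pair of bars. Lines give the shares over all 35060 regions that were not halved (5.01% lower, dashed; 8.49% higher, dotted); the blue bars go from 24.9% under 1 kb to 4.05% beyond 500 kb.

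Seen from the halved regions, 734 of 1035 had at least 1 other shared region within 20 kb that was not halved. At 249 (24.1% of the 1035) such a neighbour was called lower, at 57 (5.51%) higher, and at 8 both kinds were present. The same count was not made around all shared regions, so these shares have no background to be read against.

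Sites called in fed livers only also lay near halved regions. Of the 1153 regions that every fed and no fasted library called, at least 1 lay within 20 kb of 166 halved regions (16.04%), against 5.10% of the other shared regions. Within 5 kb the shares were 7.83% and 1.69%. For the 852 regions that every fasted and no fed library called, the shares within 20 kb were 3.29% of halved and 4.66% of other shared regions, and within 5 kb 0.29% and 1.64%. Around doubled regions the shares within 20 kb were 1.796% for sites called in fed livers only and 20.03% for those called in fasted livers only. The calls of these sites had no part in choosing the halved regions, but they come from the same libraries.

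All 19 autosomes held halved regions. Chromosome 15 had the greatest share, 67 of 1555 shared regions (4.31%), followed by chromosomes 16 (3.47%), 3 (3.47%), 13 (3.46%) and 4 (3.39%). The smallest were those of chromosome 11 (51 of 2505, 2.04%) and chromosome 7 (44 of 2114, 2.08%). Chromosome 4 held 83 halved and 31 doubled regions, while chromosome 5 held 54 halved and 66 doubled ones, the only autosome where doubled regions were more numerous. These shares were not tested, since neighbouring regions are not independent.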

How the data were processed

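DNase I hypersensitive sites were mapped in 3 libraries of fed and 3 libraries of fasted liver. Per the labels' protocols, DNase I was used on nuclei at 40 U/ml, with size selection for 100 to 500 bp. The submitters' processing notes name CASAVA 1.8 and build mm9; for the aligner and the hotspot caller, no name is given in the sources used here. The authors deposited 1 hotspot list per library, with a maximum and an average tag density (a coverage signal whose scale is not stated), and 2 statistics per hotspot. One is a z-score, a score that the authors computed per hotspot before deposit, and the other is the p-value they deposited with it; how these were made is not stated, and neither entered a test here.

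Hotspots sharing at least 1 bp were merged over the 6 lists on chromosomes 1 to 19, which gave 72733 regions, 36095 of them called in every library. Log2 densities (pseudocount 1) were centred per library and fitted with limma 3.58.1 (R 4.3.3, mean-variance trend, Benjamini-Hochberg adjustment over all shared regions), a step tested on simulated data. The rest used pandas 2.3.3 and numpy 2.4.6 under Python 3.11.15, with plots by matplotlib 3.10.9. Relative depth, from the step of the densities, was 1.00 to 1.90, with fasted replicate 2 the deepest. No pair of replicates agreed within counting error (the mean squared z over regions was 2.19 to 5.83), so none was counted as a duplicate. This cannot show whether replicates came from separate animals. Coordinates are as in the files.

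The halved regions and all settings were chosen with earlier results of these data known. Named regions are the 10 highest in fed liver, the 5 at each end of share left, width and threshold (some given in full, the others only summarised or left out), and the 5 runs with most regions, ties going to the larger mean loss. The most isolated region and the largest with overlapping groups were added after their values were seen. Alternatives were other pseudocounts, centrings, density measures, merging distances, distances along the genome, density or hotspot-number limits, the variance model, the replicate block and leaving out each library; depth as a covariate was added after seeing the data. Gene loci, gene lists and motifs were planned and not made, for want of an annotation and sequence of build mm9.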

Additional observations from a re-analysis of the deposited data

Results flagged for a closer look

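Hotspots on chromosome X lay outside the choice of regions, and some regions there met it too. Of 956 regions of chromosome X called in all 6 libraries, 15 (1.57%) met the same rule with the libraries centred on their autosomal medians, and 8 (0.84%) met the mirror rule. Both shares were below those of any autosome, of which the lowest were 2.04% halved (chromosome 11) and 1.27% doubled (chromosome 4). The differences were not tested.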

How the results depend on the processing

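The number of halved regions, 1035, stood at 388 with a pseudocount of 10, 680 with average in place of maximum density and 386 among the denser 50% of regions, a smaller set; the other 11 settings, among them leaving out each library (1010 to 1208), stayed within 1.5 times. All 388 and 674 of the 680 were among the 1035. Of the limma counts, 2791 lower and 2978 higher, the upper 50% gave 1120 and 1912, fewer regions being tested, and no centring gave 1930 higher. Leaving out each replicate gave 1961 to 2614 lower and 1950 (without fasted replicate 1) to 3238 higher; the cause was not tested. Replicate numbers gave no sign of pairing: deviations of equal numbers correlated at -0.07, -0.03 and -0.17, those of unequal numbers at -0.07 to 0.14. With 3 libraries per group this cannot exclude a pairing. The replicate block gave 2475 lower and 2616 higher regions and 208 lower ones near halved regions. Regions called lower near halved ones numbered 121 within 5 kb and 476 within 100 kb, since the window changes, and 135 to 212 on leaving out each replicate. The held-out median averaged -1.17 and ran from -1.32 to -0.96. Runs numbered 41 with gaps of at most 5 kb and 130 with 100 kb. The share of density left stayed between 34.2% and 39.3%. Settings that needed an annotation or sequence were not run. The lowest halved region in each fasted library was 9 or 10 tags high, if 1 step is 1 tag, so counting error is large at the weakest ones.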
